A study of Homo sapiens with 6 samples.

Results

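Heparan sulfate proteoglycans are core proteins that carry long sulfated sugar chains, and the 8 genes described here encode 6 cell-surface cores and the 2 enzymes that edit the chains outside the cell. They were picked by gene symbol from a table of 61806 genes, with earlier results of these libraries known: the sulfatases SULF1 and SULF2, the glypicans GPC1, GPC4 and GPC6, and the syndecans SDC1, SDC2 and SDC4. The values that led to the choice are the levels in the UVB and UVB + sauchinone libraries, so these levels and their differences are given as a description and no test is drawn from them. A member is said below to be called when its edgeR adjusted p is under 0.05, which describes the fit and is no test of that member. All 8 genes passed the filter on low counts that left 15704 genes for testing.

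Both groups were HFF cells, a wild-type line of human foreskin fibroblasts held by a cell collection, and both were exposed to ultraviolet B (UVB) at 40 mJ per cm2. The UVB group (3 libraries) received vehicle and the UVB + sauchinone group (3 libraries) received 10 µM sauchinone, a lignan from plants, for 48 h. The protocols describe addition right after irradiation and also a version with pretreatment, and which of these gave the libraries is not stated. One culture line was used and nothing states that replicates were separate cultures, so the spread between libraries may be technical. No unirradiated libraries were analysed here.

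Heparan sulfate is built on a linker sugar chain, polymerised, and then sulfated at defined positions, and the pattern of sulfates decides which growth factors, chemokines and morphogens the chain holds. Syndecans span the membrane and glypicans are held to it by a lipid anchor. SULF1 and SULF2 are secreted enzymes that remove 6-O-sulfates from finished chains, which is known to weaken FGF receptor signalling and to free WNT ligands. In skin, fibroblasts present heparan sulfate to matrix proteins and to growth factors that act in wound repair.

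Total counts ran from 20984851 to 23076388 per library. Fibroblast markers were abundant, with all 10 above 1 CPM (counts relative to the TMM-adjusted library size). Their summed level was 19312 to 21065 CPM in UVB and 13577 to 13878 CPM in UVB + sauchinone. In edgeR's quasi-likelihood test 9 of the 10 were called lower (90%, beside 24.9% of all tested genes). Of markers for other cells, KRT5, KRT1, DSG3, CDH5, KDR, DCT and CD3E had no counts. The summed level was 14.1 to 14.7 and 15.7 to 17.2 CPM for 8 epithelial markers, 6.76 to 7.99 and 2.51 to 3.39 CPM for 6 endothelial markers, and under 2.6 CPM in every library for 5 melanocyte and 6 leukocyte markers. Of 7 pericyte and smooth muscle markers 5 were called lower (71.4%, beside 24.9% of all tested genes). The sum of the 7 went from between 356 and 359 CPM to between 172 and 189 CPM, with none at 0. Mitochondrially encoded genes took 3.73 to 3.92% of counts in UVB and 4.30 to 4.74% in UVB + sauchinone. The part of these shifts in the results below was not tested, and in bulk RNA fewer cells of a type cannot be told apart from less RNA per cell.

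The promoters of the 4 called members with a match in the promoter table are described. SULF2 and GPC4 were lower with sauchinone, and GPC1 and SDC4 were higher. Bases are printed for SULF2, SDC4 and GPC1. For GPC4 a dash stands in their place, and only its position, motif counts and GC content are given. Each run covers the 250 bases before and the 50 after a RefSeq gene start (GRCh38.p14, on the gene's own strand), and capitals mark the GC box GGGCGG read on either strand. Of the 8 members 6 matched the promoter table, and where a gene had several starts the one closest to the deposited gene start was taken. SULF2 lies on chr20:47786578-47786877 (minus strand, 1 of 4 starts), GPC4 on chrX:133415440-133415739 (minus strand), SDC4 on chr20:45348375-45348674 (minus strand) and GPC1 on chr2:240435413-240435712 (plus strand).
SULF2: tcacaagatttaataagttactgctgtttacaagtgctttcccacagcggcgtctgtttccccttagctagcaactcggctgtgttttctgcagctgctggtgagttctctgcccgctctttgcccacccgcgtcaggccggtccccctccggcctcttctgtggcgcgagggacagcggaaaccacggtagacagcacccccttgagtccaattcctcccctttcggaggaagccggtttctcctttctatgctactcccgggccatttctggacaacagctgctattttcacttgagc
GPC4: -
SDC4: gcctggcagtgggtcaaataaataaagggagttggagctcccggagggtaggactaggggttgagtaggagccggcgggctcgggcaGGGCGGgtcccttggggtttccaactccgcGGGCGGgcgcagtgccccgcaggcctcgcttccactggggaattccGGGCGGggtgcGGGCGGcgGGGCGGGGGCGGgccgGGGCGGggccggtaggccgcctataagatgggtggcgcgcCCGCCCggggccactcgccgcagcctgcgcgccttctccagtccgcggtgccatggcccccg
GPC1: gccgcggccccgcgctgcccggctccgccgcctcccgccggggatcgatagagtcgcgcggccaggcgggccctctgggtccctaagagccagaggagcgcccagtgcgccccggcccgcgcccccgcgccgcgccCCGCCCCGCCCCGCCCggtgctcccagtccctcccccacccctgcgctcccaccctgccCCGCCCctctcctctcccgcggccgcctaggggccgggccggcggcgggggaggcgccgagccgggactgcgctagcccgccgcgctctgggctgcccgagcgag
The SDC4 window held 8 GC boxes and the GPC1 window held 4, of which 3 ran into each other by a shared base. The GPC4 window held 2, the SULF2 window 0, and the windows of SDC1 and GPC6 held 1 and 0. The box occurred in 45.0% of 35116 promoters of the same length. The GC content of the windows was 74.0% for SDC4, 83.3% for GPC1, 74.7% for GPC4, 55.7% for SULF2, 67.7% for SDC1 and 40.0% for GPC6, against a median of 58.7% over all promoters. The AP-1 motif TGACTCA, present in 4.95% of promoters, was in none of the 6 windows. The core of the antioxidant response element, TGACNNNGC (13.3% of promoters), was found once, in the GPC6 window. The letters TATAA, found in 20.4% of promoters, occurred once each in the SDC4 and GPC6 windows and not in the other 4. All motifs were read on both strands, and a match is a description of the letters alone.

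SULF1 was the member that differed most. Its level was 959, 904 and 1107 CPM in UVB replicates 1, 2 and 3, and 173, 222 and 218 CPM in UVB + sauchinone replicates 1, 2 and 3. Every UVB library lay far above every sauchinone library. The level was thus 4.84-fold lower with sauchinone, a log2 fold change of −2.27 ± 0.092 (SE), from 990 ± 105 to 205 ± 27.0 CPM (mean ± SD, n = 3 in each group). Of the 2284 genes averaging 100 CPM or more, SULF1 had the 3rd lowest log2 fold change. Among the members SULF1 alone was both called by edgeR and at least 2-fold lower, as were 7.31% of all tested genes. SULF1 spans 194 kb of genome, and long genes tended to be lower in these data: in the quintile of genes with spans of 88.7 to 2242 kb, 58.5% were called lower and the median log2 fold change was −0.44. With a smooth trend of counts against span removed from each library, the SULF1 value was −1.70.

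SULF2, the paralog with the same endosulfatase activity, was expressed far less and was lower as well. Its level was 20.6, 17.9 and 18.8 CPM in UVB and 9.81, 11.2 and 11.8 CPM in UVB + sauchinone, with no overlap between the groups. The log2 fold change was −0.80 ± 0.12 (SE), or 1.74-fold lower, and −0.47 with the span trend removed. SULF2 (ENSG00000196562, chromosome 20 at 47656197 to 47786616, minus strand, GRCh38) shares 681 bases with NCOA3 on the other strand, and NCOA3 had 2669 to 3210 counts per library against 217 to 428 for SULF2. The use of strand in counting is not stated, so reads in that stretch could be assigned to either gene. Per exon length, SULF1 exceeded SULF2 by a ratio of FPKM (counts scaled to exon length and to the library total) of 34.7, 37.7 and 43.8 in UVB and of 13.1, 14.8 and 13.8 in UVB + sauchinone. SULF1 thus made up 97.5 ± 0.29% of the summed FPKM of the 2 sulfatases in UVB and 93.3 ± 0.37% with sauchinone (SD, n = 3). That sum was 104, 96.8 and 119 FPKM in UVB and 20.4, 25.4 and 25.4 FPKM in UVB + sauchinone.

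**Figure D1:**
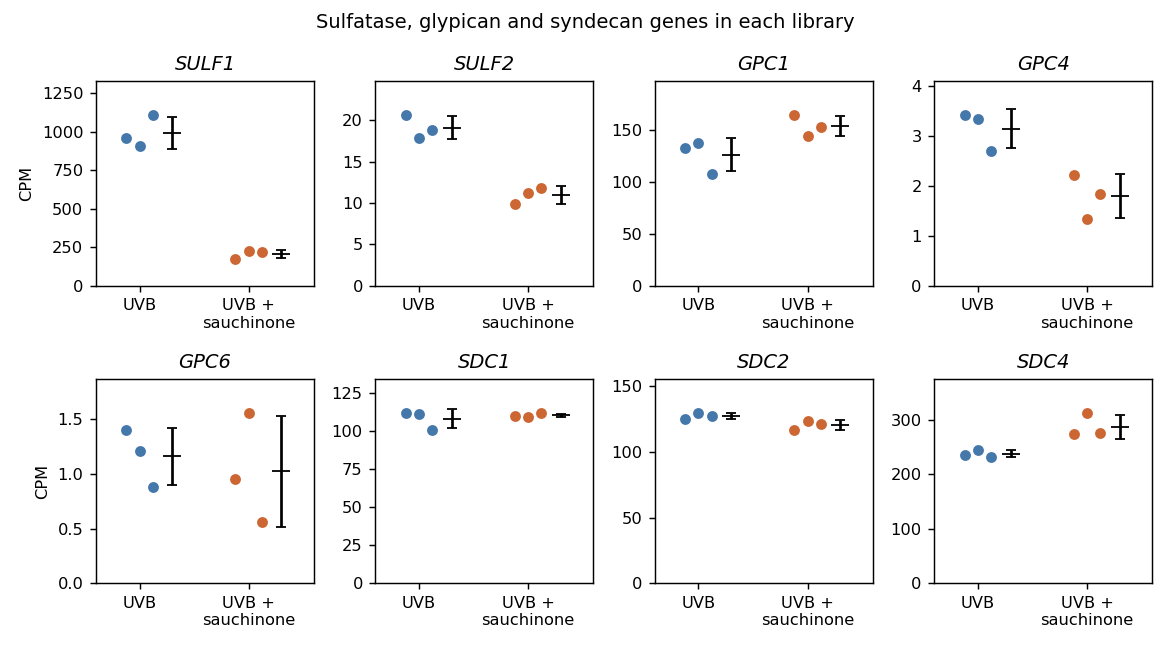
Level of each of the 8 genes in CPM (vertical axes, each from 0) in the 3 UVB and 3 UVB + sauchinone libraries; points are libraries in the order of replicates 1 to 3 and the bar beside them is the mean ± SD. SULF1, SULF2 and GPC4 lie lower with sauchinone and GPC1 and SDC4 higher, while the groups overlap for GPC6 and SDC1.

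GPC1 was the main glypican of these cells. It is known as a co-receptor for FGF ligands and is the glypican most widely found in adult tissues. Its level was 133, 137 and 108 CPM in UVB and 165, 145 and 153 CPM in UVB + sauchinone, so every sauchinone library was higher. UVB replicate 3 was the lowest library of all. The log2 fold change was 0.29 ± 0.088 (SE), or 1.22-fold higher. It ran from 0.19, without UVB replicate 3, to 0.35 as each library was left out in turn. It was 0.23 with the span trend removed, but −0.012 with a trend with GC content removed, so the direction turned (the GC content of GPC1 transcripts is 65.0%). GPC1 (ENSG00000063660, chromosome 2 at 240435663 to 240468076, plus strand) overlaps the antisense gene GPC1-AS1, which had 3 to 16 counts per library.

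GPC4 and GPC6 were scarce. GPC4, a glypican known to bind FGF2 and WNT ligands, had 71, 72 and 61 counts in UVB and 49, 31 and 43 counts in UVB + sauchinone. In CPM these were 3.42, 3.33 and 2.69 against 2.22, 1.34 and 1.84, and the groups did not overlap. The log2 fold change was −0.81 ± 0.25 (SE), and −0.54 with the span trend removed. GPC6 had 29, 26 and 20 counts in UVB and 21, 36 and 13 counts in UVB + sauchinone. The highest and the lowest library both belonged to the sauchinone group. Its log2 fold change was −0.18 ± 0.38 (SE), which did not pass. GPC6 spans 1181 kb, at the far end of the span range, and with the span trend removed its value was 1.36 and was called higher. GPC4 (ENSG00000076716) lies on chromosome X at 133300103 to 133415489 (minus strand) and GPC6 (ENSG00000183098) on chromosome 13 at 93226807 to 94408020 (plus strand).

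SDC4 was the most abundant syndecan. It is known to sit in focal adhesions, where it binds fibronectin and signals through protein kinase C alpha. Its level was 236, 246 and 232 CPM in UVB and 274, 313 and 275 CPM in UVB + sauchinone. Every sauchinone library was higher, with replicate 2 above the other 2. The log2 fold change was 0.27 ± 0.073 (SE), or 1.21-fold higher. It was 0.16 with the span trend removed, 0.13 with a trend with exonic size removed and 0.28 with the GC trend removed. SDC4 (ENSG00000124145, chromosome 20 at 45325288 to 45348424, minus strand) lies 2.31 Mb from SULF2.

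SDC1 and SDC2 stayed close to their UVB levels. SDC1, the syndecan typical of epithelia, was at 112, 111 and 101 CPM in UVB and 110, 110 and 112 CPM in UVB + sauchinone. These ranges overlapped, and the log2 fold change was 0.032 ± 0.077 (SE). It was −0.20, and called lower, with the GC trend removed. SDC2, the syndecan typical of mesenchymal cells, was at 125, 129 and 127 CPM in UVB and 116, 123 and 121 CPM in UVB + sauchinone. Its sauchinone libraries were all lower, by a small amount (log2 fold change −0.079 ± 0.074, SE), and the value was 0.20, and called higher, with the span trend removed. The directions for SDC1 and SDC2 therefore depend on the correction. SDC1 (ENSG00000115884) lies on chromosome 2 at 20200797 to 20225433 (minus strand).

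**Figure D2:**
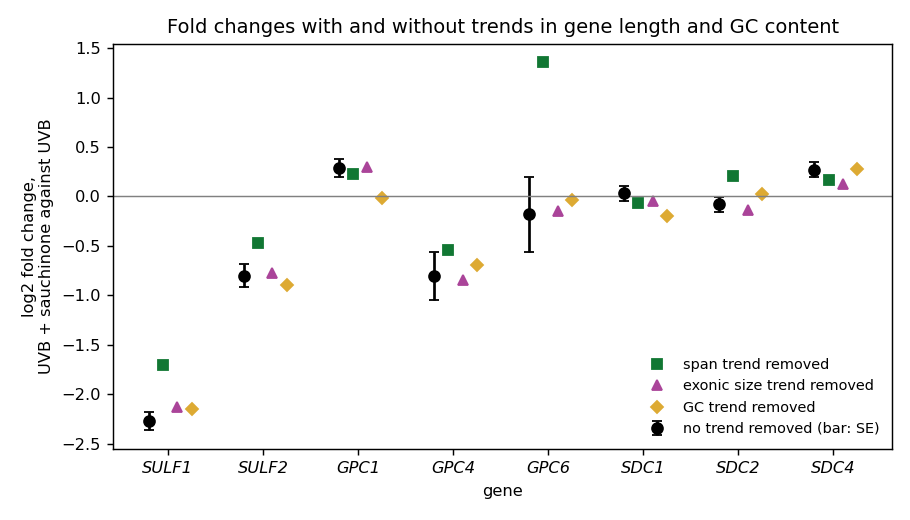
Log2 fold change (vertical axis, UVB + sauchinone against UVB) of each gene as fitted (circle, bar: SE) and after removing a trend of counts against GC content, exonic size or span. SULF1 stays between −2.27 and −1.70, GPC6 moves to 1.36 with the span trend removed, and GPC1 moves to −0.012 with the GC trend removed.

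In edgeR's quasi-likelihood test 5 of the 8 members had an adjusted p under 0.05, 3 of them lower (SULF1, SULF2 and GPC4) and 2 higher (GPC1 and SDC4). Over all tested genes 49.6% were called, 24.9% lower and 24.7% higher. The libraries of the groups did not overlap for 6 of the 8 members, against 57.1% of tested genes. Nothing is read from these counts, since the members were picked on this comparison. The median log2 fold change of the members was −0.13, against 0.0071 over all tested genes.

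Levels per exon length put SULF1 first in UVB, at 104 ± 11.1 FPKM (SD, n = 3). SDC4 came next at 89.6 ± 2.29 FPKM, followed by SDC2 (30.6 ± 0.40 FPKM), SDC1 (29.5 ± 1.73 FPKM) and GPC1 (19.0 ± 2.41 FPKM). SULF2, at 2.69 ± 0.21 FPKM, GPC4, at 0.62 ± 0.081 FPKM, and GPC6, at 0.16 ± 0.036 FPKM, were far lower. Among neighbours in this order, the libraries of SDC2 and SDC1 overlapped and those of the other pairs did not. With sauchinone SDC4 came first at 112 ± 7.41 FPKM, then SDC1, SDC2 and GPC1 at 31.1 ± 0.54, 29.9 ± 0.62 and 24.0 ± 1.76 FPKM. SULF1 came 5th at 22.1 ± 2.79 FPKM, where its libraries overlapped those of GPC1.

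**Figure D3:**
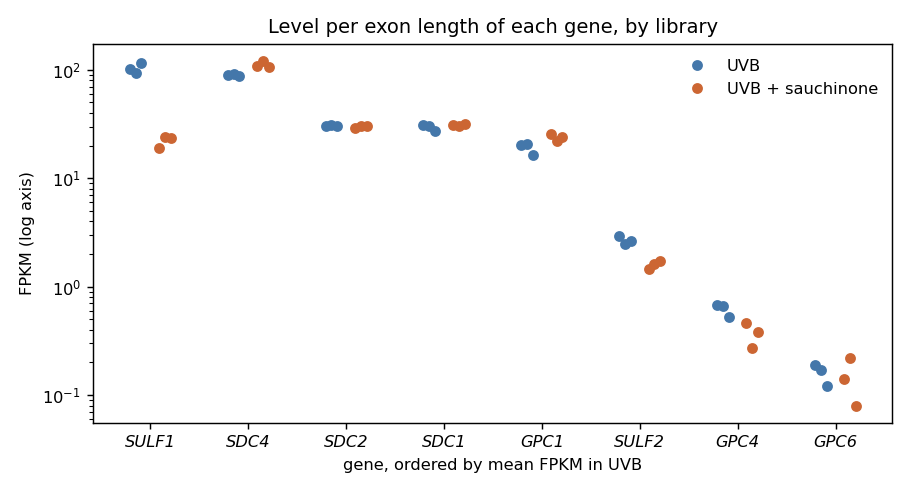
FPKM of each gene in each library (vertical log axis), with genes ordered by their mean in UVB and groups by colour. SULF1 moves from first in UVB (104 FPKM) to 5th with sauchinone (22.1 FPKM).

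The mix of surface cores shifted by a few percent. Summed over 4 syndecan and 6 glypican genes, the level was 179, 183 and 169 FPKM in UVB and 201, 210 and 201 FPKM in UVB + sauchinone. FPKM is scaled to library totals, without the TMM adjustment used for CPM. Glypicans gave 11.3 ± 0.95% of the summed FPKM in UVB and 12.2 ± 1.19% with sauchinone, and the libraries of the groups overlapped. SDC4 gave 50.5 ± 0.92% and 54.7 ± 2.19%, and SDC2 gave 17.3 ± 0.69% and 14.6 ± 0.32%. Within the glypicans GPC1 made up 94.4 ± 0.81% and 96.3 ± 0.21%, and GPC5 had no counts in any library.

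Genes most like each member were sought by Pearson r of log2 CPM over the 6 libraries, among 9015 named genes averaging 10 CPM or more. For SULF1 they were LINC01085 (r = 0.999, log2 fold change −1.81) and SFRP1, a secreted WNT inhibitor (r = 0.999, −1.27). An r of at least 0.95 with SULF1 was reached by 1253 genes, and with GPC6 by 1. For SULF2 they were ZNF532 (r = 0.998) and TIMM9 (r = 0.997). For GPC1 they were KLHDC8B and NTMT1 (r = 0.996 and 0.995), and for GPC4 SAMHD1 and IFT43 (r = 0.991 and 0.990). For SDC4 they were KDM3B and TCP1 (r = 1.00 and 0.996), for SDC1 MRPS6 and STOML1 (r = 0.989 and 0.988), and for SDC2 LSM3 and IMMT (both r = 0.992). For GPC6 the r values were lower, at 0.952 for PCOLCE2 and 0.941 for THEM4. The libraries share their depth range and culture, and these values carry no p. Group means were not removed, so r includes the difference between UVB and UVB + sauchinone on which the members were picked.

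The other cores that carry heparan sulfate were not among the chosen members, but this list too was chosen with earlier results of these data known. In edgeR's quasi-likelihood test 5 of the 6 cores that could be tested fell (83.3%, against 24.9% of all tested genes called lower). Their median log2 fold change was −0.36. TGFBR3, the betaglycan co-receptor of TGF-beta, fell 2.01-fold, from 46.0 ± 9.42 to 23.0 ± 2.68 CPM (edgeR adjusted p = 5.3e-07). TGFBR3 spans 226 kb, and with the span trend removed its log2 fold change was −0.34 and still called. HSPG2, the basement membrane core perlecan, fell 1.36-fold, from 222 ± 22.1 to 163 ± 12.4 CPM (edgeR adjusted p = 0.00011). Its log2 fold change of −0.45 was −0.18 with the span trend removed and −0.11 with exonic size removed, neither of them called, and −0.73 with the GC trend removed. COL18A1, a collagen that bears heparan sulfate, fell by 0.50 ± 0.13 in log2 units (SE; edgeR adjusted p = 0.0029). The COL18A1 value was −0.25 and not called with the span trend removed, and −0.83 with the GC trend removed. SDC3, the remaining syndecan, was at 54.7, 60.9 and 46.9 CPM in UVB and 44.3, 42.2 and 48.3 CPM with sauchinone, and these groups overlapped. Its log2 fold change was −0.27 ± 0.098 (SE; edgeR adjusted p = 0.027). That call was lost with replicate blocks, with a trend with exonic size removed and under total-count scaling, and when any 1 of UVB replicates 1 and 2 or sauchinone replicates 1 and 2 was left out. The adjusted p of SDC3 ran up to 0.13 over all alternatives, and its value was −0.50 with the GC trend removed. AGRN (agrin), named after its values were seen, was the fifth gene that fell, at −0.28 (edgeR adjusted p = 0.043, up to 0.50 over the alternatives). Of this list 3 genes were called without UVB replicate 1, without UVB replicate 2 or without sauchinone replicate 2. With exonic size removed 2 were called. With the span trend removed 3 were called lower and GPC3, also named after its values were seen, was called higher (1.09, against 0.060 without the correction, from 65 and 71 counts summed over the libraries of each group).

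Enzymes that build, sulfate and break down heparan sulfate moved both ways. Of 44 genes 35 could be tested, and 8 rose, 11 fell and 16 did not pass in edgeR's quasi-likelihood test. This is 54.3% called, beside 49.6% of all tested genes, and the list's median log2 fold change was 0.0077. With the span trend removed 7 rose and 6 fell.

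Within the linker step 3 of 7 genes rose and 2 fell (71.4% called, beside 49.6% of all tested genes). XYLT1, 1 of 2 xylosyltransferases that start chains, fell 2.14-fold, from 103 ± 4.71 to 48.2 ± 4.76 CPM (edgeR adjusted p = 8.1e-10). XYLT1 spans 369 kb, and its log2 fold change of −1.10 became −0.16 and lost its call with the span trend removed (adjusted p up to 0.096 over all alternatives). XYLT2, which carries out the same step and was named after its values were seen, rose by 0.24 ± 0.098 in log2 units (SE; edgeR adjusted p = 0.043). The XYLT2 value was 0.099 and not called with the span trend removed, and its adjusted p ran up to 0.94. B3GALT6, the second galactosyltransferase of the linker, rose 1.57-fold, from 12.7 ± 0.80 to 19.9 ± 1.21 CPM (edgeR adjusted p = 5.3e-05). Its log2 fold change of 0.65 was 0.43 with the span trend removed and 0.35 with the GC trend removed, both called. B3GAT3, which adds the last sugar of the linker, rose by 0.40 ± 0.13 in log2 units (SE; edgeR adjusted p = 0.011). The B3GAT3 call was lost with any of the 3 trends removed (0.12 to 0.26) and without UVB replicate 3 (0.28).

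Of 5 chain polymerisation genes 2 fell and 1 rose (60% called, beside 49.6% of all tested genes). EXT1, a subunit of the heparan sulfate polymerase, fell 1.71-fold, from 379 ± 18.9 to 222 ± 16.9 CPM (edgeR adjusted p = 1.4e-08). EXT1 spans 317 kb, and with the span trend removed its value turned to 0.078, which was not called (adjusted p up to 0.40 over all alternatives). Its partner EXT2 was at 274 ± 13.6 and 257 ± 3.67 CPM and did not pass (edgeR adjusted p = 0.30), although it was called higher with a span or exonic size trend removed (0.34 and 0.28). EXTL1, a related transferase, fell by 1.03 ± 0.16 in log2 units (SE; edgeR adjusted p = 1.4e-05). EXTL3, which adds the first sugar that commits a chain to heparan sulfate, rose by 0.21 ± 0.084 (SE; edgeR adjusted p = 0.045). The EXTL3 call was lost under 9 of 17 alternatives, among them when any 1 of UVB replicates 1 and 3 or sauchinone replicates 1 and 3 was left out, and its adjusted p ran up to 0.18. The EXTL3 value was 0.64 with the span trend removed and 0.51 with exonic size removed.

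Of 7 tested genes of the epimerisation and sulfation step 1 rose, 1 fell and 5 did not pass (28.6% called, beside 49.6% of all tested genes). HS6ST1, which adds the 6-O-sulfates that SULF1 and SULF2 remove, was at 14.1, 14.5 and 11.3 CPM in UVB and 24.5, 22.6 and 21.9 CPM in UVB + sauchinone. It rose 1.73-fold (log2 fold change 0.79 ± 0.12, SE; edgeR adjusted p = 7.7e-06), and stayed called under all 17 alternatives. HS2ST1, which adds 2-O-sulfates, was at 74.3, 66.1 and 82.8 CPM in UVB and 45.0, 40.2 and 43.8 CPM with sauchinone. It fell by 0.79 ± 0.093 in log2 units (SE; edgeR adjusted p = 3.0e-07), and by 0.22 with the span trend removed (its span is 195 kb). NDST1, the main N-deacetylase and N-sulfotransferase, was at 243 ± 21.1 and 240 ± 9.50 CPM (edgeR adjusted p = 0.87). NDST1 was called lower with the GC trend removed (−0.23). GLCE, the epimerase, was at 47.7 ± 3.25 and 43.7 ± 1.51 CPM (edgeR adjusted p = 0.25). The other 6-O-sulfotransferases, HS6ST2 and HS6ST3, had too few counts to be tested. In all, 9 of the 16 genes of this step could not be tested, 4 of them with no count at all, where 3 counts correspond to 0.129 to 0.144 CPM in a library.

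Among sulfate supply genes 3 of 6 fell and 1 rose (66.7% called, beside 49.6% of all tested genes). PAPSS2, which makes the sulfate donor PAPS, fell 1.57-fold, from 907 ± 5.57 to 579 ± 11.5 CPM (edgeR adjusted p = 2.0e-08), and by 0.48 on the log2 scale with the span trend removed. PAPSS1 fell by 0.43 ± 0.081 in log2 units (SE; edgeR adjusted p = 0.00014), and was at −0.095 and not called with the span trend removed. SLC35B3, a Golgi transporter of PAPS, fell by 0.39 ± 0.086 (SE; edgeR adjusted p = 0.00061), and by 0.18 with the GC trend removed.

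Of 10 breakdown genes 2 rose, 3 fell and 5 did not pass (50% called, beside 49.6% of all tested genes). HPSE, the heparanase that cuts chains outside and inside the cell, rose from 1.36 ± 0.38 to 2.69 ± 0.57 CPM (log2 fold change 0.99 ± 0.28, SE; edgeR adjusted p = 0.0050). HPSE2, a relative without heparanase activity, fell from 1.61 ± 0.30 to 0.40 ± 0.20 CPM (edgeR adjusted p = 0.00032). HPSE2 spans 779 kb, and its log2 fold change of −1.97 became −0.65 and lost its call with the span trend removed (adjusted p up to 0.21 over all alternatives). ARSG, a lysosomal sulfatase that acts on heparan sulfate, fell by 0.49 ± 0.15 in log2 units (SE; edgeR adjusted p = 0.011), and was at −0.032 with that trend removed and at −0.40, not called, without UVB replicate 1.

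**Figure D4:**
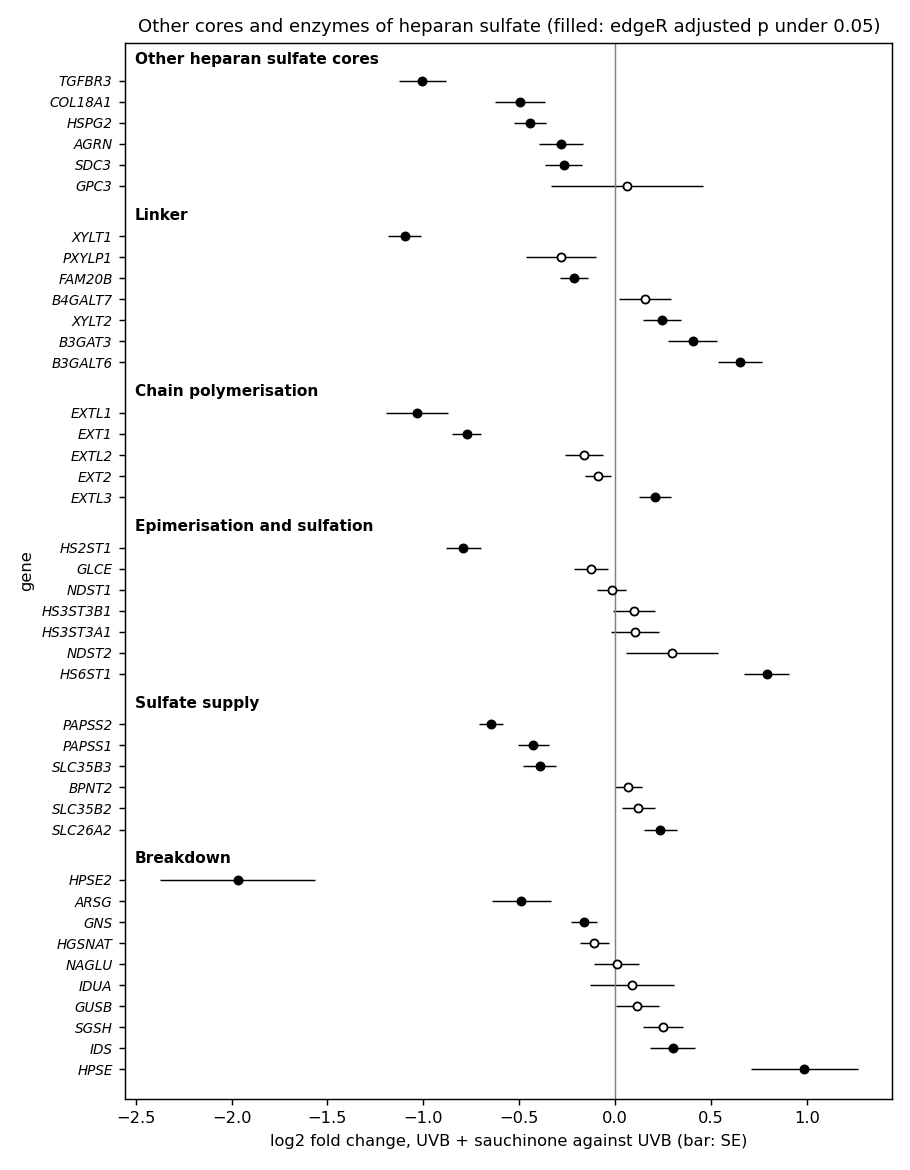
Log2 fold change (horizontal axis, UVB + sauchinone against UVB, bar: SE) of the other cores and of the enzymes, grouped by step, with filled points for an edgeR adjusted p under 0.05. HS6ST1 (0.79) and HS2ST1 (−0.79) are the called genes of the epimerisation and sulfation step. XYLT1 (−1.10) lies lowest in the linker step, and EXTL1 (−1.03) and EXT1 (−0.77) lie low in the polymerisation step.

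Enzymes that release heparan sulfate cores from the surface, together with a protease inhibitor, were measured too. Of 6 tested genes of this list 2 fell and 1 rose (50% called, beside 49.6% of all tested genes). ADAM10, a membrane protease that sheds many surface proteins, fell 1.62-fold, from 245 ± 40.5 to 151 ± 4.89 CPM (edgeR adjusted p = 1.3e-06). Its log2 fold change of −0.70 was −0.24 with the trend with its span of 161 kb removed and −0.39 with exonic size removed, both called. TIMP3, a matrix-bound inhibitor of such proteases, fell 1.43-fold, from 1926 ± 95.5 to 1345 ± 39.9 CPM (edgeR adjusted p = 5.4e-07). MMP14, a membrane-type metalloproteinase, rose by 0.22 ± 0.065 in log2 units (SE; edgeR adjusted p = 0.0075), and was at 0.040 and 0.011, not called, with the span or GC trend removed. ADAM17 was at 46.7 ± 3.45 and 48.8 ± 2.97 CPM (edgeR adjusted p = 0.58), although it was called higher with an exonic size or GC trend removed (0.37 and 0.24).

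Cytoplasmic partners of syndecans fell in 3 and rose in 2 of 6 tested genes (50% lower and 33.3% higher, beside 24.9% and 24.7% of all tested genes). PRKCA, the protein kinase C alpha that SDC4 binds, was at 144, 163 and 158 CPM in UVB and 46.7, 35.0 and 44.5 CPM in UVB + sauchinone. It fell 3.68-fold (log2 fold change −1.88 ± 0.098, SE; edgeR adjusted p = 9.3e-13), and by 0.78 with the trend with its span of 508 kb removed. CASK, a scaffold that binds the syndecan tail, fell 3.49-fold, from 65.7 ± 4.76 to 18.8 ± 1.37 CPM (edgeR adjusted p = 1.3e-12), and by 0.81 on the log2 scale with the trend with its span of 409 kb removed. SDCBP (syntenin), the adaptor that carries syndecans into exosomes, was at 356, 330 and 388 CPM in UVB and 432, 479 and 410 CPM with sauchinone, and rose 1.23-fold (log2 fold change 0.30; edgeR adjusted p = 0.0024), or by 0.50 on the log2 scale with the GC trend removed.

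Ligands that bind heparan sulfate fell in 12 and rose in 4 of 18 tested genes, with a median log2 fold change of −0.61 (66.7% lower, beside 24.9% of all tested genes). SLIT2, a guidance ligand, fell 3.10-fold, from 205 ± 17.1 to 66.1 ± 6.60 CPM (edgeR adjusted p = 1.3e-12). SLIT2 spans 369 kb, and its log2 fold change of −1.63 was −0.70 with the span trend removed, still called. GREM1, a BMP antagonist that binds heparan sulfate, fell 1.89-fold, from 4103 ± 85.8 to 2168 ± 91.6 CPM (edgeR adjusted p = 4.0e-11). FGF2 was at 803, 777 and 923 CPM in UVB and 518, 477 and 529 CPM in UVB + sauchinone, and fell 1.64-fold (edgeR adjusted p = 4.4e-08). HBEGF, an EGF receptor ligand named for its binding to heparin, was at 16.2, 15.6 and 13.5 CPM in UVB and 141, 179 and 106 CPM in UVB + sauchinone. It rose 9.40-fold (log2 fold change 3.23 ± 0.14, SE; edgeR adjusted p = 6.8e-14).

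FGF receptors and genes induced by FGF signalling rose in 6 and fell in 2 of 12 tested genes (50% higher and 16.7% lower, beside 24.7% and 24.9% of all tested genes), with a median log2 fold change of 0.44. DUSP6, a phosphatase of ERK, rose 1.64-fold, from 27.6 ± 1.02 to 45.4 ± 2.60 CPM (edgeR adjusted p = 9.4e-07). SPRY4, an inhibitor of receptor tyrosine kinase signalling, rose 1.62-fold, from 45.3 ± 4.39 to 73.6 ± 5.28 CPM (edgeR adjusted p = 1.3e-06). ETV5, a transcription factor induced by FGF, rose by 0.51 ± 0.089 in log2 units (SE; edgeR adjusted p = 5.8e-05). ETV1 and SPRED1 went the other way, with log2 fold changes of −0.52 and −0.22 (edgeR adjusted p = 0.00084 and 0.023). With the span trend removed ETV1 was at −0.30, still called, and SPRED1 was at 0.0080, not called. Both were singled out with their results in view. FGFR1, the main receptor here, was at 169 ± 4.92 and 159 ± 3.62 CPM and did not pass (edgeR adjusted p = 0.33). It was called higher with an exonic size trend removed (0.23) and lower with a GC trend removed (−0.25). These genes also answer to other receptors, and whether SULF1 and these genes are linked was not tested.

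**Figure D5:**
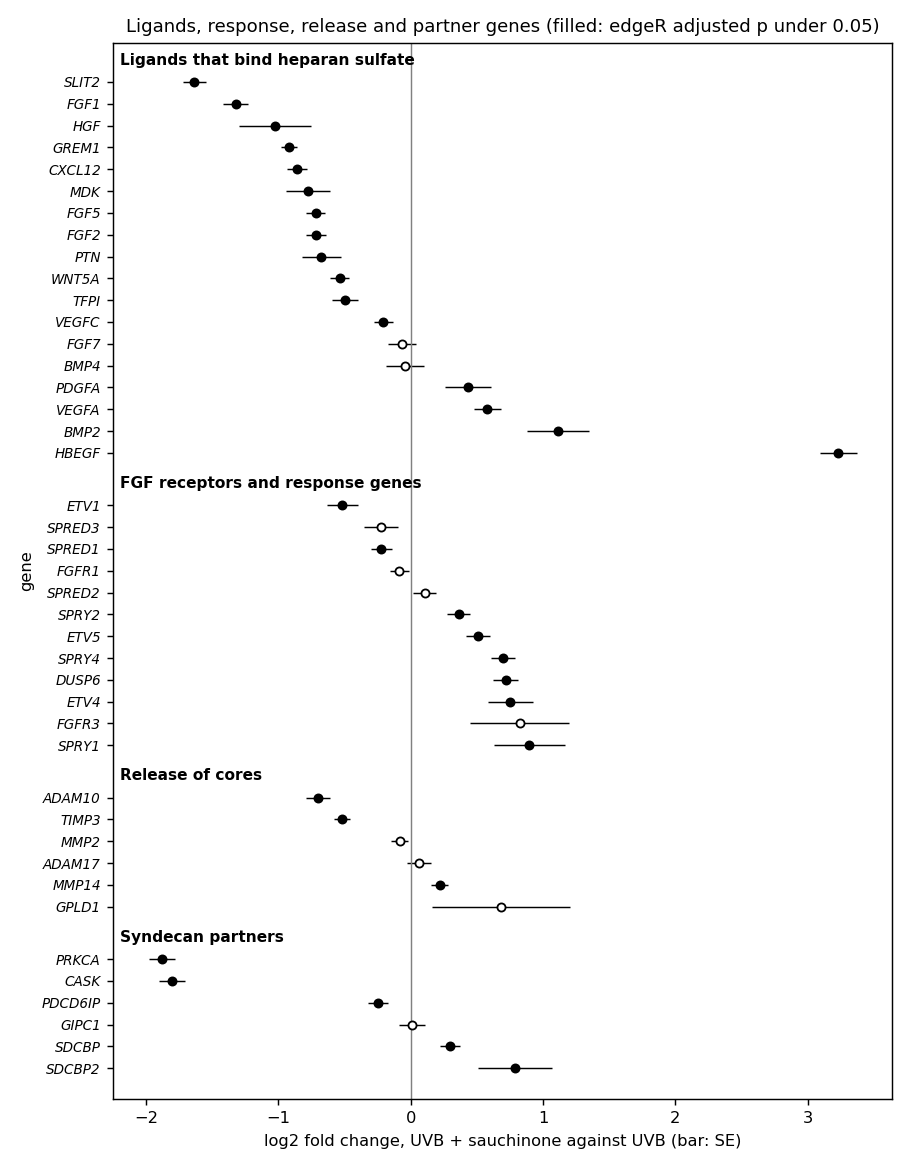
Log2 fold change (horizontal axis, UVB + sauchinone against UVB, bar: SE) of ligands, FGF receptors and response genes, release genes and syndecan partners, with filled points for an edgeR adjusted p under 0.05. HBEGF stands apart at 3.23 among ligands that mostly lie below 0, and PRKCA and CASK lie at −1.88 and −1.80.

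Chondroitin and dermatan sulfate synthesis, the sister pathway that shares the linker, was set beside these lists. Of 14 tested genes 5 rose and 4 fell (64.3% called, beside 49.6% of all tested genes), with a median log2 fold change of 0.094. With the span trend removed 6 were called higher and 1 lower. CSGALNACT2, which starts chondroitin chains, rose 1.75-fold, from 101 ± 10.0 to 177 ± 12.4 CPM (edgeR adjusted p = 5.2e-08). DSEL, a dermatan sulfate epimerase, fell 1.56-fold, from 374 ± 33.8 to 240 ± 7.21 CPM (edgeR adjusted p = 2.4e-07). UST, a 2-O-sulfotransferase of these chains, fell by 0.96 ± 0.10 in log2 units (SE; edgeR adjusted p = 8.5e-08), and was at −0.087 and not called with the trend with its span of 330 kb removed.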

How the data were processed

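RNA was sequenced in 3 UVB and 3 UVB + sauchinone libraries. Per the labels' protocols, enrichment used oligo(dT) beads or depletion of ribosomal RNA (not said which), and a strand-preserving construction is described. The authors deposited whole-number counts per gene, FPKM values and exonic sizes. The build is GRCh38 according to the submitters' processing notes, while aligner, counter and annotation were not given in the sources used here. Each deposited FPKM matched, within 0.006, the value computed from count, exonic size and library total. FPKM set levels per length and entered no test.

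The test on counts was edgeR 4.0.16 in R 4.3.3 (filterByExpr, TMM, quasi-likelihood, two-sided, Benjamini-Hochberg over 15704 genes, threshold 0.05), with no covariates. Standard errors were derived from each log2 fold change and its F value. Trends were removed by lowess offsets per library (span 0.3), with GC content from GENCODE transcripts for 98.2% of tested genes. Other alternatives were DESeq2 1.42.0, limma-voom (limma 3.58.1), other normalizations and filters, a replicate block and each library left out. The members and gene lists were chosen with earlier results of these data known. Named genes were the members, the 3 smallest p in each of 11 pathway lists at a mean of 1 CPM or more, and a set named whatever their p. The fitting code was tested on simulated data. Replicates differed by more than sampling noise (chi-square per degree of freedom of 4.00 to 19.3), so none was counted as a duplicate.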

Additional observations from a re-analysis of the deposited data

How the results depend on the processing

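SULF1, SULF2, GPC4 and SDC4 kept their direction under every alternative that gave a value, and GPC1 turned in 1 of 17 (−0.012, GC trend removed). GPC4 and GPC6 gave no value under the filter of 10 CPM. The call of GPC1 was lost without sauchinone replicate 1 (0.24) and that of GPC4 without sauchinone replicate 2 (−0.63) and with the span trend removed (−0.54). That of GPC1 was also lost with the GC trend removed. That of SDC4 was lost with the span or exonic size trend removed (0.16 and 0.13). Calls were gained by GPC6 (1.36) and SDC2 (0.20), both higher with the span trend removed, and by SDC1 (−0.20), lower with the GC trend removed. Such calls of members are a description of the fits and no test, since the members were picked on this comparison. With libraries left out in turn, GPC6 ran from −0.62 to 0.12, SDC1 from −0.019 to 0.055 and SULF1 from −2.34 to −2.17.

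Of the 39 other named genes 23 kept their side of the threshold throughout, and of these GLCE alone turned in sign. Genes whose sign turned were EXT1 (0.078, span), EXT2 (0.34, span, and 0.28, exonic size) and FGFR1 (0.23, exonic size, and 0.010, span). GLCE turned to 0.13 (span) and 0.10 (GC), and NDST1 to 0.125 (exonic size), 0.090 (span), 0.028 (total-count normalization) and, with libraries left out, up to 0.044, without a call. Of other heparan sulfate cores 5 were called, 2 with exonic size removed, 3 with total-count normalization, 4 with span removed (3 lower, 1 higher) and 3 to 5 with libraries left out. With the replicate number as a block 3 of these cores were called, and 7280 genes in all against 7786 without it. The numbers name the libraries without a stated pairing, and the deviations of same-numbered libraries had correlations of 0.0072, −0.078 and −0.031. Depth limits GPC4, GPC6, HPSE and HPSE2, with 4 to 77 counts per library.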
